A study of Rattus norvegicus with 6 samples.

Results

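Heat shock proteins and their DnaJ cochaperones were compared across rat prostate tumors to place Hspb1, an mRNA the study measured as a marker of the epithelial-to-mesenchymal transition, beside the other chaperones. Members were chosen by gene symbol alone: the Hsp90, Hspa, Hspb, Hspd1, Hspe1 and Hsph1 genes, the DnaJ genes of classes A, B and C, and the Hsf genes. This gave 73 of the 17030 symbols in the table of expression values. Of these 73, 60 had a mean of at least 1 FPKM (sequenced fragments normalised to transcript length and to library size) over the 6 tumors and were tested, and 13 lay below it.

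The tumors were PAIII tumors, grown from a serially passaged, hormone-resistant prostate adenocarcinoma line injected under the skin of Lobund-Wistar rats at 2 months of age. Rats A1, A6 and A12 received daily digitoxin, a cardiac glycoside that inhibits the sodium-potassium ATPase, at 0.03 mg/kg from day 10, and rats B5, B9 and B14 received vehicle only (n = 3 each, 1 library per rat). Tumors were taken on day 40, and RNA came from pooled punches of viable regions. The digitoxin rats were picked among those with low serum IL-6 and CINC-1, and the vehicle rats among those with high levels, so treatment and serum level cannot be told apart. Values are listed below in the order A1, A6, A12 for digitoxin and B5, B9, B14 for vehicle. The number of reads behind each FPKM is unknown, so no counting interval was given.

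Chaperones bind proteins that are not yet folded or have lost their fold. Hsp70 proteins hold and release short exposed stretches in a cycle driven by ATP, which DnaJ proteins start and Hsp110 proteins, their nucleotide exchange factors, renew. Hsp90 acts later, on kinases and steroid receptors that are nearly folded. Small heat shock proteins hold unfolding clients without ATP. The chaperonin Hspd1 with its lid Hspe1 folds proteins inside mitochondria. In heat and other stress, the factor Hsf1 binds heat shock elements in the promoters of many of these genes, while unfolded protein in the endoplasmic reticulum acts on genes such as Hspa5 through the ER stress element. Many tumors hold high levels of Hsp90, Hsp70 and Hspb1.

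Both elements could be read in the promoters of a few members, and these sequences are shown because they mark 2 groups of members whose levels are described below. RefSeq promoters (GRCr8, 250 bases before to 50 after each start) matched 56 of the 73 members. The heat shock element was searched as 3 alternating GAA and TTC blocks separated by any 2 bases, on both strands. It was found in the promoters of Dnaja1, Hspa8, Hspd1, Hspe1 and Hsph1, thus in 5 of 56 members and in 267 of all 33469 promoters (0.798%). The ER stress element, CCAAT and CCACG separated by any 9 bases, was found in those of Hspa5, Hsp90b1 and Dnajc3, thus in 3 of 56 members and in 22 of all promoters (0.0657%). Capitals mark the matches, and a match is a description of the letters only. Hspe1 (chr9:64084232-64084309, plus strand) and Hspd1 are transcribed away from each other, and their windows overlap, so that the same 2 overlapping heat shock elements counted for both genes. Hsph1 (chr12:10427302-10427367, plus strand) held 1 element, 36 to 24 bases before the start, while that of Dnaja1 lay 9 to 21 bases after it.
Hspe1: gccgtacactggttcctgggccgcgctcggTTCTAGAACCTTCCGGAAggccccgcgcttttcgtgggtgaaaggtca
Hsph1: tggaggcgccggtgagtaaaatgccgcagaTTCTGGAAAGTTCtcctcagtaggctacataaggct
The ER stress element lay 43 to 25 bases before the start of Hspa5 (chr3:38452943-38453015, plus strand) and 133 to 115 bases before that of Dnajc3 (chr15:102432504-102432582, plus strand). Hsp90b1 (chr7:23012317-23012499, minus strand) held 2 copies, the second in the opposite orientation.
Hspa5: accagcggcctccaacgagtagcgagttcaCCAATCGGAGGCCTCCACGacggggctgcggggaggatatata
Dnajc3: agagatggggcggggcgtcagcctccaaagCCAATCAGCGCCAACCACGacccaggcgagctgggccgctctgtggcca
Hsp90b1: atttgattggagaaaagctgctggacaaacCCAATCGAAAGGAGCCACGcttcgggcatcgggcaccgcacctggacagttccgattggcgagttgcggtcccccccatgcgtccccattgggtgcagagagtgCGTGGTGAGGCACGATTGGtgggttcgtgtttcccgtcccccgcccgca

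The tumors did not resemble each other by treatment, and this touches every value below. Markers of lung alveoli, a list of 12 genes of which 11 are in the table, summed to 28276 to 85922 FPKM in A1, A6, B5 and B9 but to 41.0 FPKM in A12 and 62.8 FPKM in B14. In A12 the markers Lamp3, Sftpa1, Sftpb and Sftpd were listed at 0, and in B14 Lamp3, Sftpa1, Sftpb, Sftpc and Slc34a2 were. The cell division list of 8 genes summed to 62.6 FPKM in A6 and to 317 to 613 FPKM in the other tumors. Of the labelled tissue's markers, Krt8 was the most abundant in each tumor (398 to 2095 FPKM). In bulk tissue, fewer cells of a type and less RNA per cell cannot be told apart. The part of cell makeup in the chaperone values was not tested.

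The 73 members together held 0.497%, 0.380% and 0.778% of the FPKM sum in the digitoxin tumors and 0.527%, 0.563% and 0.774% in the vehicle tumors. The groups overlapped, with means of 0.552% ± 0.205 and 0.621% ± 0.133 (SD, n = 3 each). The difference of -0.0699 percentage points was -0.183 without A12, 0.0160 without A6, 0.00622 without B14 and -0.0194 without the 10 most abundant rows of each tumor, where A6 stood at 0.596%. A12 and B14, from opposite groups, held the largest shares, and A6 the smallest. Among the classes, Hsp90 took 25.0% of the members' summed FPKM in A6 and 42.6% in A12. Small heat shock genes took 25.7% in A6 and 4.06% in A12. Within the digitoxin group, A6 and A12 thus stood at opposite ends for both classes.

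**Figure D1:**
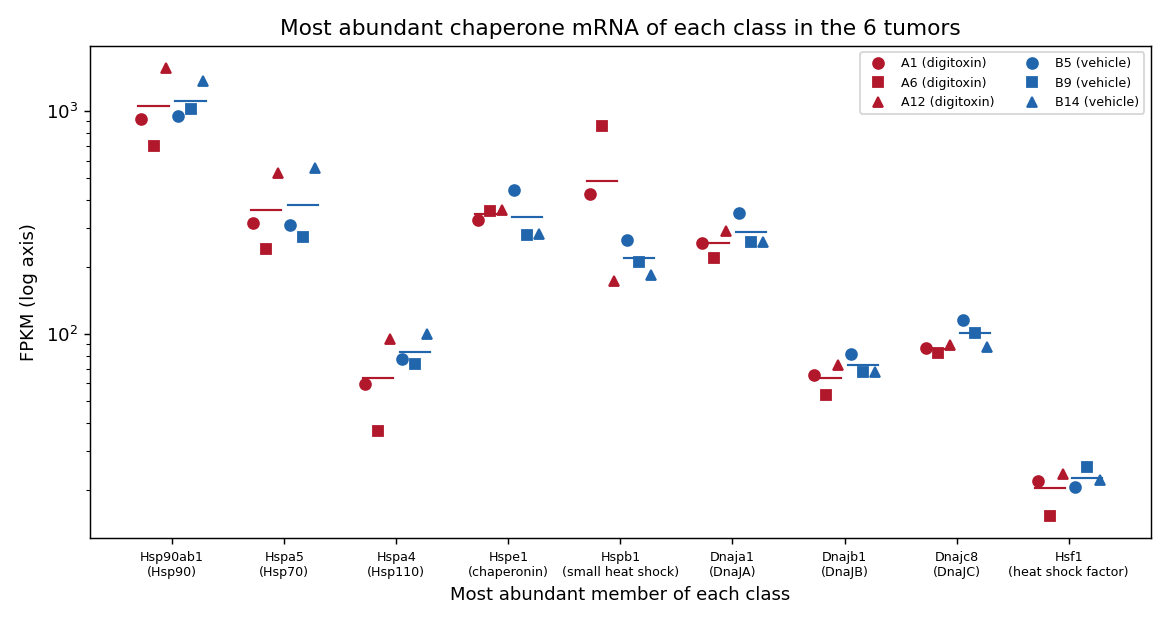
FPKM (log axis) of the most abundant member of each of 9 chaperone classes in each tumor, with digitoxin tumors in red, vehicle tumors in blue and a bar at each group mean. The groups overlap for each of the 9 mRNAs, and A12 and B14 (triangles) lie close together for Hsp90ab1, Hspa5 and Hspa4.

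Hspb1 encodes the small heat shock protein Hsp27, which binds unfolding proteins and actin and limits apoptosis. In the table it lies on chromosome 12 from 25837102 to 25838663, with no build named beside the positions. Its level was 424, 860.3 and 173 FPKM with digitoxin and 263, 209 and 184 FPKM with vehicle. A1 and A6 lay above the 3 vehicle tumors and A12 below them, so the groups overlapped. The means were 486 ± 348 FPKM with digitoxin against 219 ± 40.3 FPKM with vehicle (SD, n = 3 each), a ratio of 2.22. The log2 fold change was 0.88 (SE 0.58) on the log2(FPKM + 1) scale, the highest of the 60 tested members. With a pseudocount of 0.1 and without A12, B5 or B9, Dnajb13 was highest instead (1.00, 1.80, 1.09 and 1.13). The difference was not larger than the spread between tumors (exact permutation test, two-sided, p = 0.4, where 3 against 3 cannot go below 0.10; limma, adjusted p = 0.926). Without A6 the log2 fold change was 0.32, and without A12 it was 1.48. Like the alveolar sum, Hspb1 was highest in A6, next in A1 and lowest in A12 and B14. The sums of 4 neutrophil, 3 erythroid and 7 endothelial markers were likewise highest in A6 (62376, 10228 and 1323 FPKM) and lowest in A12 (1286, 97.0 and 61.8 FPKM) and B14 (3282, 327 and 73.6 FPKM). S100a8 and S100a9 made up most of the neutrophil sum (34402 and 27959 FPKM in A6). The other neutrophil markers, Cxcr2 and Csf3r, ran otherwise, at 7.95 and 7.44 FPKM in A6 against 36.9 and 22.9 FPKM in B5. The endothelial marker Cdh5 was highest in B9 (27.3 FPKM), with A6 at 6.34 FPKM. The part of lung tissue or of these cells in the values of Hspb1 was not tested. The ratio of Hspb1 to Rbfox2, which the study used together with it, was 76.8, 609 and 12.3 with digitoxin and 51.4, 27.4 and 12.7 with vehicle. Its groups also overlapped (exact permutation test, two-sided, p = 0.4). For a larger set of rat tumors, the paper reports reductions of Hspb1 and of this ratio with digitoxin that were far from significant. In the tumors here both means were higher with digitoxin, the opposite direction. In PC3 cells the paper reports that both fell with digitoxin and TNFα together. Rbfox2, a splicing regulator, was itself at 5.52, 1.41 and 14.1 FPKM with digitoxin and 5.11, 7.64 and 14.5 FPKM with vehicle, lowest in A6, where the ratio was highest.

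A12 and B14 were the lowest tumors for 3 of the other 4 tested small heat shock genes too. Hspb2, which is expressed mainly in muscle, was at 20.2, 39.5 and 0 FPKM with digitoxin and 14.2, 11.96 and 2.72 FPKM with vehicle. It was highest in A6, listed at 0 in A12 and low in B14. Its neighbour on chromosome 8, Cryab, encodes the small heat shock protein alpha-B-crystallin and is not a member by the rule. Cryab was at 455, 813 and 2.45 FPKM with digitoxin and 207, 209 and 11.7 FPKM with vehicle, a 332-fold range with the same tumors at its ends. Hspb6, a muscle and vascular small heat shock protein, was at 19.4, 20.4 and 8.79 FPKM with digitoxin and 10.9, 17.3 and 8.52 FPKM with vehicle. Its lowest values, too, were those of A12 and B14. The smooth muscle list of 8 markers summed to 377 and 782 FPKM in A12 and B14 against 62.5 to 212 FPKM in the other 4 tumors. Tagln (223 and 493 FPKM) and Acta2 (117 and 214 FPKM) made up most of these 2 sums. A12 and B14 both lay above the other 4 tumors for Tagln, Acta2 and Cnn1, but not for Actg2, Des, Lmod1, Myh11 or Synpo2. Des was highest in A6 (33.7 FPKM) and lowest in A12 (14.3 FPKM). The skeletal muscle list of 10 summed to 11.8 to 26.3 FPKM. The part of muscle cells in the values of Hspb2 and Hspb6 was not tested. Hspb8, a partner of Bag3 in clearing misfolded proteins, was at 20.9, 18.9 and 14.3 FPKM with digitoxin and 14.03, 17.1 and 23.9 FPKM with vehicle, with B14 highest. Hspb11, a subunit of the intraflagellar transport machinery despite its symbol, was at 37.99, 59.6 and 20.9 FPKM with digitoxin and 47.9, 45.4 and 20.5 FPKM with vehicle, and A12 and B14 lay below the other 4 tumors. Of the 5 small heat shock genes tested, 4 had a higher and 1 a lower log2 mean with digitoxin. The median was 0.08, and the corresponding value without A6 was -0.05. Without A12 it was 0.71.

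In the cytosolic Hsp90 pair, the constitutive gene Hsp90ab1 was the most abundant member of all, at 925, 697 and 1555 FPKM with digitoxin and 946, 1019.7 and 1359 FPKM with vehicle. A6 was lowest and A12 highest, both from the digitoxin group. Its log2 fold change was -0.13 (SE 0.37). The inducible Hsp90aa1 had a wider spread, at 46.03, 7.12 and 127 FPKM with digitoxin and 91.1, 80.1 and 139.7 FPKM with vehicle. The groups overlapped, and A6, where the cell division list also had its lowest sum, lay below every other tumor. Its log2 fold change of -1.48 (SE 0.96) was the lowest among the 60 members, with an unadjusted limma p of 0.175. It was -0.39 without A6 and -2.38 without A12. Without A6 the lowest member was Hspb2, at -0.97, without B5 it was Hspa9, at -1.60, and with a pseudocount of 0.1 it was Hspa13, at -1.84. The ratio of Hsp90ab1 to Hsp90aa1 was 97.9 in A6 and between 9.73 and 20.1 in the other tumors. Hsp90aa1 and Hsp90ab1 have 16 and 23 entries named as pseudogenes in RefSeq, with which reads may be shared, so both values are uncertain. Such entries exist for 18 of the 73 members.

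Of the heat-inducible list, which holds the classical targets of Hsf1, 10 symbols were in the table and 8 were tested, while Hspa1a and the row named Hspa8, whose position is described below, lay under the filter. None passed the test, and 5 had a lower and 3 a higher log2 mean with digitoxin. With median-of-ratios scaling the split was 2 lower and 6 higher, and without A6 it was 3 and 5. The rows named for the inducible Hsp70 genes themselves held low values. Hspa1b was at 2.80, 6.09 and 2.84 FPKM with digitoxin and 2.58, 1.57 and 3.65 FPKM with vehicle, and Hspa1a did not exceed 0.0832 FPKM in any tumor. These 2 genes encode nearly the same protein, and their positions in the table overlap. Reads could therefore be divided between them in an unknown way, so low values need not mean little mRNA. Hsph1, an Hsp110 exchange factor, was at 53.6, 33.2 and 78.9 FPKM with digitoxin and 55.1, 50.4 and 80.4 FPKM with vehicle. A12 and B14 were the highest and A6 the lowest, and the groups overlapped. Dnajb1, the main partner of inducible Hsp70, was at 65.7, 53.1 and 72.7 FPKM with digitoxin and 81.7, 67.3 and 67.8 FPKM with vehicle. The log2 fold change was -0.18 (SE 0.21). Dnaja1, the most abundant DnaJ mRNA, was at 256, 219 and 289.6 FPKM with digitoxin and 348, 258 and 257 FPKM with vehicle, with a log2 fold change of -0.17 (SE 0.23). For Dnaja1 and Dnajb1, B5 was highest and A6 lowest, and the groups overlapped.

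Hsf1, the main heat shock factor, was at 21.96, 15.3 and 23.7 FPKM with digitoxin and 20.6, 25.4 and 22.1 FPKM with vehicle. The log2 fold change was -0.17 (SE 0.26), and the 5 tumors other than A6 lay within 20.6 to 25.4 FPKM. Hsf2, a second factor that can pair with Hsf1, was at 8.20, 3.30 and 14.7 FPKM with digitoxin and 11.9, 11.6 and 13.6 FPKM with vehicle, and Hsf4, best known from the lens, at 2.77, 5.55 and 0.379 FPKM with digitoxin and 1.33, 2.86 and 0.738 FPKM with vehicle. A6 was the lowest tumor for Hsf2 and the highest for Hsf4. Hsf2bp, which binds Hsf2 and is no factor itself, was below the filter.

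The row named Hspa8 calls for care. Hspa8 encodes the constitutive Hsc70, which is abundant in nearly all cells, but its row did not exceed 0.370 FPKM in any tumor. The row lies on chromosome 11 from 17153157 to 17155257, whereas RefSeq places the gene of this symbol on another chromosome and lists 33 Hspa8 pseudogenes. The row therefore cannot be read as the level of Hsc70. Dnajc22 also lies on another chromosome than its RefSeq gene, and its values, 15.1 to 38.3 FPKM, are uncertain in the same way.

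Several members of the endoplasmic reticulum were highest in A12 and B14. Hspa5, the Hsp70 of this compartment (BiP), was at 315, 239.8 and 527 FPKM with digitoxin and 309, 272 and 555 FPKM with vehicle. A12 and B14 lay above the other 4 tumors, and the log2 fold change was -0.08 (SE 0.41). Hsp90b1, its Hsp90 (Grp94), was at 317, 271 and 591 FPKM with digitoxin and 354, 333 and 575 FPKM with vehicle, with the same order of A12 and B14 above the rest. The ratio of Hspa5 to Hsp90b1 lay between 0.818 and 0.993 in all 6 tumors. Dnajb9, a DnaJ protein that restrains the ER stress sensor Ire1, was at 25.3, 9.29 and 42.8 FPKM with digitoxin and 26.9, 22.3 and 43.3 FPKM with vehicle. Dnajc10, a disulfide reductase, was at 33.7, 19.4 and 55.3 FPKM with digitoxin and 38.5, 42.8 and 56.4 FPKM with vehicle. For both, A12 and B14 were highest and A6 lowest. Dnajc3, an inhibitor of eIF2alpha kinases and the third member with an ER stress element in its promoter, was at 39.96, 35.1 and 46.6 FPKM with digitoxin and 48.7, 37.9 and 53.1 FPKM with vehicle. It varied less than Dnajb9 and Dnajc10 and differed from them in that B5 lay above A12. Dnajb11, a BiP cochaperone, was at 58.9, 59.3 and 68.6 FPKM with digitoxin and 59.6, 51.5 and 74.6 FPKM with vehicle. Hspa13, a microsomal Hsp70-like protein, had the widest spread of the list, at 3.28, 0.361 and 12.7 FPKM with digitoxin and 7.001, 8.02 and 15.7 FPKM with vehicle. Of the 8 genes listed, 7 were in the table and tested, none passed, and 6 had a lower and 1 a higher log2 mean with digitoxin (4 and 3 with median-of-ratios scaling, 3 and 4 without A6).

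**Figure D2:**
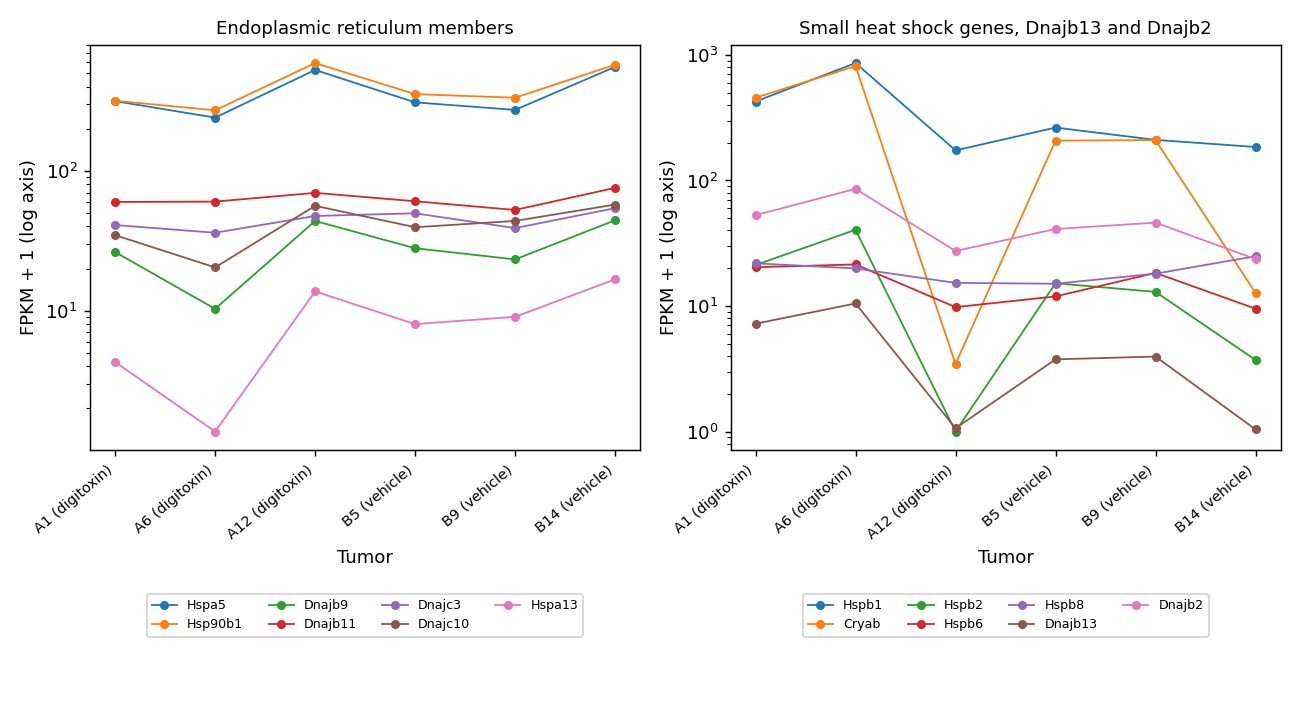
FPKM plus 1 (log axis) in each tumor for members of the endoplasmic reticulum (left) and for small heat shock genes, Cryab, Dnajb13 and Dnajb2 (right), with lines that only join the points of 1 gene. Most genes on the left are highest in A12 and B14 and lowest in A6, and Hspb1, Cryab, Hspb2 and Dnajb13 on the right have their lowest points in A12 and B14.

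In mitochondria, the chaperonin Hspd1 (Hsp60) was at 63.8, 48.8 and 97.5 FPKM with digitoxin and 74.4, 66.1 and 89.1 FPKM with vehicle. A12 and B14 were highest and A6 lowest. Its lid Hspe1 (Hsp10), transcribed from the shared promoter region printed above, was at 324, 357 and 360.3 FPKM with digitoxin and 445, 277 and 282 FPKM with vehicle. The order of the tumors differed from that of Hspd1, with B5 highest and B9 lowest. The log2 fold change of Hspe1 was 0.08 (SE 0.25), and the ratio of Hspe1 to Hspd1 was 5.07, 7.31 and 3.69 with digitoxin and 5.98, 4.19 and 3.17 with vehicle. Hspd1 has 20 entries named as pseudogenes in RefSeq. Hspa9, the mitochondrial Hsp70 (mortalin), was at 24.1, 3.72 and 61.4 FPKM with digitoxin and 34.5, 45.1 and 74.6 FPKM with vehicle, a 20.1-fold range within which A6 lay far below the others. Dnaja3, its DnaJ partner, was at 40.7, 21.7 and 51.7 FPKM with digitoxin and 47.9, 45.2 and 44.1 FPKM with vehicle, with A6 again lowest. Dnajc15, a DnaJ protein of the import motor, was at 68.3, 78.1 and 68.9 FPKM with digitoxin and 91.5, 60.02 and 57.4 FPKM with vehicle, and there B5 was highest and B14 lowest. Dnajc11, a protein tied to the cristae of the inner membrane, was at 21.7, 15.2 and 29.1 FPKM with digitoxin and 21.8, 26.1 and 29.8 FPKM with vehicle, with A12 and B14 highest and A6 lowest. Of the 7 genes listed, 6 were in the table and tested, none passed, and 4 had a lower and 2 a higher log2 mean with digitoxin (3 and 3 with median-of-ratios scaling, 2 and 4 without A6).

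Hspa4, the most abundant Hsp110 gene, was at 59.7, 36.9 and 94.5 FPKM with digitoxin and 77.1, 73.2 and 99.5 FPKM with vehicle. The groups overlapped, and its log2 fold change was -0.47 (SE 0.37). It was -0.13 without A6 and -0.80 without A12. Hspa12b, an Hsp70-like gene of the endothelium, was at 14.1, 22.3 and 2.55 FPKM with digitoxin and 6.45, 13.7 and 3.30 FPKM with vehicle. Its lowest values were those of A12 and B14, as were the sums of the endothelial list of 7 markers, at 61.8 and 73.6 FPKM against 305 to 1323 FPKM in the other 4 tumors. The part of endothelial cells in the values of Hspa12b was not tested.

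Among the DnaJ genes, Dnajb13, a protein of the radial spokes of motile cilia and sperm tails, had the widest relative range of the tested members with a value above 0 in each tumor, at 233-fold. It was at 6.23, 9.47 and 0.0609 FPKM with digitoxin and 2.76, 2.96 and 0.0407 FPKM with vehicle. A12 and B14 were near 0 and A6 was highest. The motile cilia list, of which 6 of 8 markers were in the table, summed to 541, 1097 and 16.1 FPKM with digitoxin and to 208, 257 and 12.7 FPKM with vehicle, and Dnai1 was listed at 0 in A12 and B14. The part of ciliated cells in the values of Dnajb13 was not tested. Dnajb2, a cochaperone that sorts clients to the proteasome, was at 51.9, 84.7 and 26.4 FPKM with digitoxin and 40.1, 45.1 and 22.6 FPKM with vehicle, again lowest in A12 and B14. Dnajc5, the cysteine string protein of secretory vesicles, went the other way, at 18.2, 7.44 and 52.8 FPKM with digitoxin and 32.7, 37.1 and 68.3 FPKM with vehicle. A12 and B14 were highest and A6 lowest, and its unadjusted limma p of 0.158 was the smallest of the 60 members. In the limma fit blocked on replicate number its p was 0.0249 (adjusted p = 0.638), and 4.15% of all rows lay under 0.05 there. Digitoxin was lower than vehicle in 3 of 3 pairs of the same number, as for 22.4% of rows.

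Other DnaJ genes hardly varied. Dnajc8, a splicing-associated protein and the most abundant DnaJC member, was at 86.3, 82.3 and 89.3 FPKM with digitoxin and 116, 101 and 87.4 FPKM with vehicle. B14 was the only vehicle tumor within the range of the digitoxin tumors, and the log2 fold change was -0.23 (SE 0.19). Dnajc30, a mitochondrial protein, had the smallest SD on the log2 scale, with 16.3 to 19.2 FPKM. Dnajc17, a nuclear protein with an RNA recognition motif, ranged from 8.18 to 10.1 FPKM, and Dnajb5, a partner of Hsp70 in muscle, from 5.91 to 8.26 FPKM. Each of these 3 genes had overlapping groups.

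**Figure D3:**
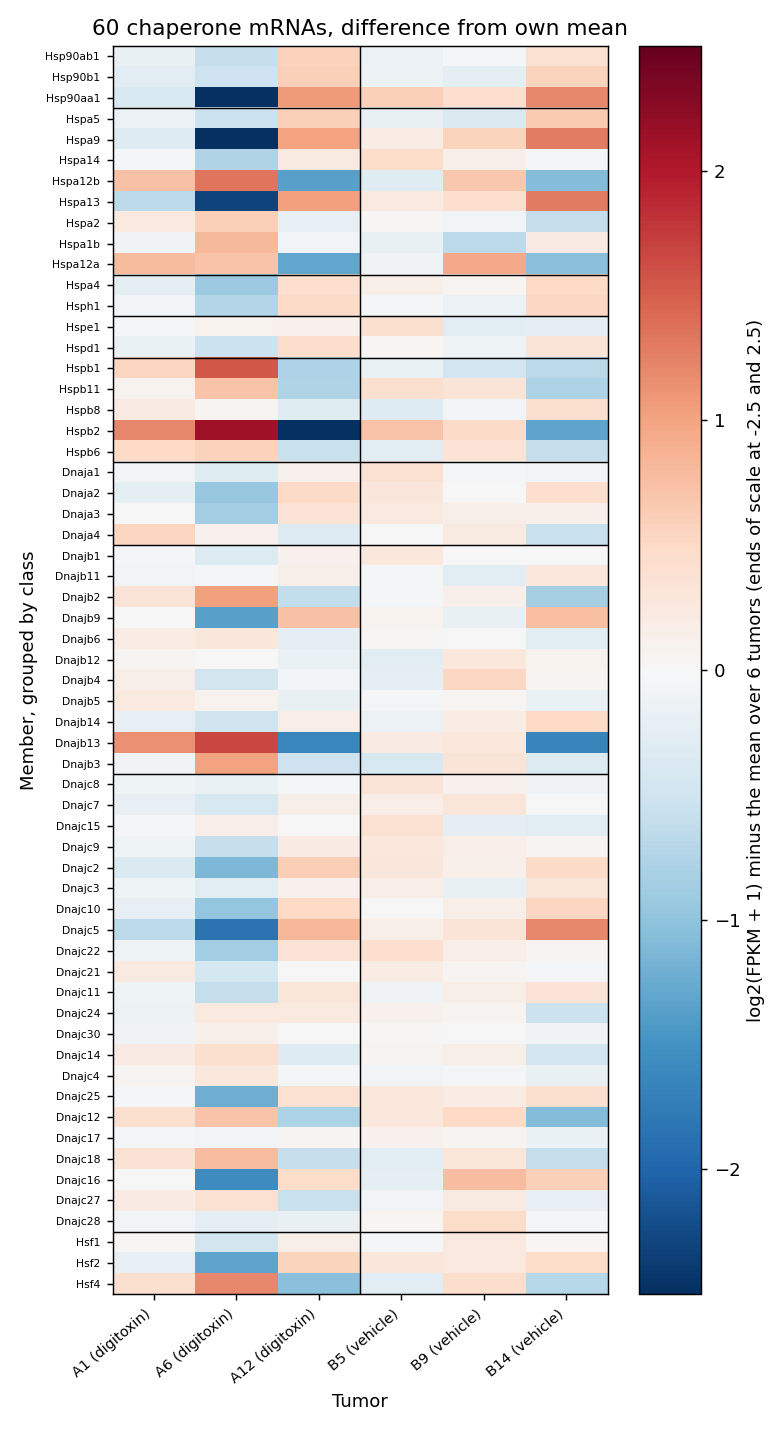
Difference of log2(FPKM + 1) from each member's own mean over the 6 tumors, for the 60 tested members (rows, grouped by class) in each tumor (columns, digitoxin left of the line). A6 is the lowest tumor for 32 members and the highest for 19, and A12 and B14 resemble each other more than their own groups.

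Over the 60 tested members, A6 was the lowest tumor for 32 (53.3%, against 50.5% of all 10749 rows tested) and the highest for 19 (31.7%, against 23.9%). A12 and B14 both lay above the other 4 tumors for 18 members, against 30.1% of rows, and both below them for 17 (28.3%, against 29.3%). The members thus followed these 3 tumors about as often as the table did. Across the 60 members, log2(FPKM + 1) correlated at r = 0.991 between A12 and B14 and at 0.733 between A6 and A12, both of the digitoxin group (genes of the same libraries, which are not independent).

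Between the treatments, none of the 60 members passed the test at an adjusted p of 0.05 (limma with Benjamini-Hochberg adjustment over 10749 rows, where 0 rows or 0.0% passed), and a member's adjusted p was never under 0.926. Unadjusted, 0 members lay under 0.05, as against 36 rows (0.335%). The log2 fold changes ran from -1.48 for Hsp90aa1, which was at -0.39 without A6, to 0.88 for Hspb1. Their median was -0.13, against -0.16 over all rows. It was -0.06 without A6 and -0.25 without A12, against -0.08 and -0.22 over the rows of those fits. In all, 35 of 60 members (58.3%) had a lower log2 mean with digitoxin, against 64.9% of rows. With median-of-ratios scaling, which moved the median of all rows by 0.18, 24 of 60 members were lower, against 48.6% of rows. By class, the lower members were 3 of 3 in Hsp90, 4 of 8 in Hsp70, 2 of 2 in Hsp110, 1 of 2 in the chaperonin, 1 of 5 in the small heat shock genes, 3 of 4 in DnaJA, 5 of 11 in DnaJB, 14 of 22 in DnaJC and 2 of 3 among the factors. With the other scaling they were 1, 3, 2, 0, 0, 2, 3, 12 and 1 in the same order, and without A6 they were 1, 5, 1, 0, 3, 2, 5, 15 and 2.

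**Figure D4:**
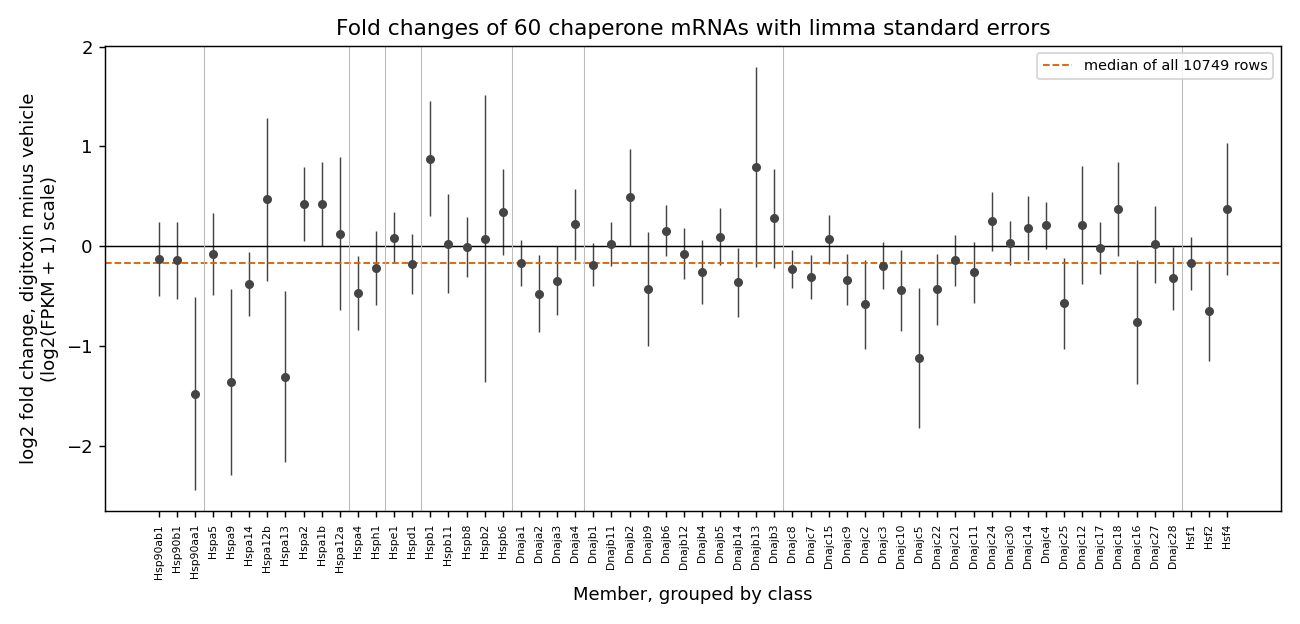
log2 fold change of digitoxin minus vehicle on the log2(FPKM + 1) scale with limma's standard error, for the 60 tested members in order of class, and the median of all 10749 rows as a dashed line. The points run from -1.48 for Hsp90aa1 to 0.88 for Hspb1, and none passed the test.

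The 3 digitoxin values did not overlap the 3 vehicle values for 2 of 60 members, against 4.16% of rows. Dnajc4, a little-studied DnaJ protein, was higher with digitoxin, at 15.4, 17.8 and 14.2 FPKM with digitoxin and 13.8, 13.97 and 12.8 FPKM with vehicle. Its log2 fold change was 0.21 (SE 0.24), and 0.902% of rows lay apart in this direction. Dnajc28, likewise little studied, passed the filter only through the vehicle group, so its place in the count is no support for a difference. It was lower, at 0.921, 0.729 and 0.777 FPKM with digitoxin and 1.09, 1.79 and 0.972 FPKM with vehicle. Its log2 fold change was -0.32 (SE 0.32), and 3.26% of rows lay apart in that direction. For Dnajc4 the nearest values of the groups were those of A12 and B9, 14.2 and 13.97 FPKM, and for Dnajc28 they were those of A1 and B14, 0.921 and 0.972 FPKM. Neither passed the test (limma, adjusted p = 0.926 for both).

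These counts depended on the tumors that entered. Without A12, 12 of 61 members (19.7%) had an unadjusted p under 0.05, as did 19.7% of rows, and the smallest adjusted p of a member was 0.251. These were Dnaja2, Dnajc2, Dnajc5, Hsf2, Hsp90aa1, Hspa13, Hspa4 and Hspa9, lower with digitoxin, and Dnajb13, Hspa4l, Hspb1 and Hspb2, higher. Hspa4l reached the filter only through the high values of A1 and A6, and its place in this count supports nothing. Without A12 and B14, 8 of 61 members (13.1%) did, against 11.1% of rows, with 5 lower and 3 higher. The groups then did not overlap for 37 of 61 members without A12 (60.7%, against 50.8% of rows), for 40 of 61 without A12 and B14 (65.6%, against 57.2%), for 7 without B5 (11.7%, against 13.3%) and for 6 without B14 (9.84%, against 10.4%). With the replicate number as a block, Dnajc5, Hsp90aa1 and Hspa13 had an unadjusted p under 0.05 (0.0249, 0.0386 and 0.0435), against 4.15% of rows, and none passed after adjustment (smallest adjusted p = 0.638). In pairs of the same number, digitoxin was lower in 3 of 3 pairs for 13 of 60 members (21.7%, against 22.4% of rows), among them Hsp90aa1, Hspa13, Hspa9, Hspa4 and Dnajc5. It was higher in 3 of 3 pairs for 9 of 60 members (15.0%, against 9.68% of rows). Over the alternatives tried, the smallest adjusted p of a member ran from 0.251 to 1.00.

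Of 47 other genes of chaperone pathways, 44 were in the table and 43 were tested, and none had an unadjusted p under 0.05, whereas 9 of 43 (20.9%) did without A12, against 19.7% of rows. Without A12 and B14 only Cryab and Fkbp5 did, 2 of 43 (4.65%, against 11.1% of rows), and with median-of-ratios scaling only Bag3, 1 of 43 (2.33%, against 0.354%). None passed after adjustment. A lower log2 mean with digitoxin was found for 29 and a higher one for 14, with median-of-ratios scaling for 21 and 22, and without A6 for 17 and 26. In the cytosolic chaperonin TRiC, which folds actin and tubulin, 8 of 8 subunits were lower, with a median of -0.32 that was -0.66 without A12. With the other scaling 6 of 8 were lower (median -0.12), and without A6 5 of 8 (median -0.03). Its most abundant subunit, Cct5, was at 311, 277 and 488 FPKM with digitoxin and 422, 350.3 and 434 FPKM with vehicle. Of the Hsp90 cochaperones, 6 of 9 were lower but 2 of 9 without A6, and the most abundant, the kinase adaptor Cdc37, was at 152, 136 and 270.2 FPKM with digitoxin and 181, 164 and 221 FPKM with vehicle. For Cct5 and Cdc37, A6 was lowest and A12 highest, and the groups overlapped. Of the Hsp70 cochaperones, 6 of 13 were lower, and the most abundant, the exchange factor Bag1, was at 162, 192 and 161 FPKM with digitoxin and 194, 134 and 143 FPKM with vehicle. Of the prefoldin subunits, 2 of 4 were lower, with Pfdn5 the most abundant at 502, 886 and 282 FPKM with digitoxin and 647, 357 and 241 FPKM with vehicle. The groups overlapped for Bag1 and Pfdn5. Of the other 9 tested, 7 were lower, but 3 with the other scaling and 2 without A6. Of these, the most abundant, the lectin chaperone Calr of the endoplasmic reticulum, was at 629, 548 and 1049 FPKM with digitoxin and 675, 635 and 1027 FPKM with vehicle. For Calr, as for Hspa5, A12 and B14 were highest. The groups did not overlap for 1 of the 43 genes, against 4.16% of rows, and 0.902% with digitoxin higher. This was Hspbp1, an exchange factor that acts on Hsp70, at 81.7, 85.7 and 88.1 FPKM with digitoxin and 77.6, 75.1 and 66.3 FPKM with vehicle. The log2 fold change was 0.22 (SE 0.18).

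The 13 members below the filter were Dnajb7, Dnajb8, Dnajc6, Dnajc5b, Dnajc5g, Hspa4l, Hspa1l, Hspa8, Hspa1a, Hsf2bp, Hspb7, Hspb9 and Hspb3. Dnajb8, Dnajc5g and Hspb3 were listed at 0 in all 6 tumors. Hspa4l, an Hsp110 gene best known from testis, was the nearest to the filter, at 2.02, 1.81 and 0.114 FPKM with digitoxin and 0.662, 0.782 and 0.215 FPKM with vehicle, and the member just above it was Dnajc28.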

How the data were processed

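Messenger RNA libraries from 6 PAIII tumors were grouped by their labels into digitoxin and vehicle (n = 3 each). The authors deposited 1 table of FPKM per gene and tumor. The submitters' processing notes name CASAVA, FastQC, Bowtie2, TopHat2, Cufflinks and Cuffdiff, and list hg19, a human build, although the samples are from rat. The build behind the table's positions is therefore unsettled, and the depth per tumor is unknown. Some results on single marker genes are not reported here. Reads were not analysed here, and Cuffdiff, which needs them, was not repeated. The table's rows were fitted with limma 3.58.1 in R 4.3.3 (lmFit, eBayes with trend, two-sided) after adding 1 FPKM and taking log2. The 10749 rows averaging 1 FPKM or more were kept, with Benjamini-Hochberg adjustment over them. A log2 fold change on this scale understates the change of low mRNAs. The fit was tested on simulated data. An exact permutation test was used for Hspb1 and for Hspb1 relative to Rbfox2. Tables and plots were made with matplotlib 3.10.9, pandas 2.3.3 and numpy 2.4.6 in Python 3.11.15.

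The members and lists were chosen with earlier results of these data known. Values and fold changes were given for Hspb1, for the most abundant member of each class and for members with an unadjusted p under 0.05 or without overlap of the groups. Values were given for the 5 members each with the largest and smallest SD and for the heat-inducible, endoplasmic reticulum and mitochondrial lists. Other members named (Dnajb2, Hspb6, Hspb8, Hspb11, Hspa12b, Hsf2, Hsf4 and Dnajc5) were added after their values were seen, to describe their classes. Replicate numbers are shared by the groups. Deviations from the group means correlated at r = 0.426, 0.606 and 0.869 for replicates 1, 2 and 3, so a fit with the replicate number as a block was made beside the main fit and the permutation tests, which have none. No source says what a number marks. Of the 6 pairs of unlike number, 2 were as close as replicates 1 and 2 (r = 0.644 for A1 and B9, 0.612 for A6 and B5). None reached the 0.869 of replicate 3, and the 4 that held A12 or B14 ran from -0.750 to -0.661. Alternatives left out each tumor in turn or A12 with B14, added the replicate block, dropped the trend or the filter, used a pseudocount of 0.1 or ratios of group means, or scaled by median of ratios.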

Additional observations from a re-analysis of the deposited data

How the results depend on the processing

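No member passed an adjusted p of 0.05 under any alternative tried. The count of all rows at an unadjusted p under 0.05 was 36, and it was 133 with no filter, 446 with the replicate block, 1196 without rats A12 and B14, and 12 to 2128 with 1 tumor left out. Rows passing after adjustment numbered 2 without rats A12 and B14 and 0 to 2 with 1 tumor left out (2 without B14). Members at an unadjusted p under 0.05 numbered 3 with the replicate block, 8 without rats A12 and B14 and 0 to 12 with 1 tumor left out. The blocked fit changed no other call. Members whose groups did not overlap numbered 40 without rats A12 and B14 and 2 to 37 with 1 tumor left out. Under median-of-ratios scaling, Hsp90ab1 (0.0677), Hspa5 (0.120), Dnaja1 (0.0262), Dnajb1 (0.00996) and Hsf1 (0.0157) turned positive in log2 fold change, and Hspe1 was at -0.0479 without rats A12 and B14. With 1 tumor left out, the log2 fold change ran from -0.45 to 0.13 for Hsp90ab1, from -0.39 to 0.24 for Hspa5, from -0.29 to 0.0119 for Hsf1 and from -0.0327 to 0.31 for Hspe1. In the same way Dnaja1 ran from -0.27 to -0.03, Dnajb1 from -0.28 to -0.06, Dnajc8 from -0.33 to -0.13 and Dnajc4 from 0.13 to 0.28. Causes were not tested. The signs given for Hsp90ab1, Hspa5, Dnaja1, Dnajb1, Hsf1 and Hspe1 therefore depend on scaling or on which tumors entered, and those of Dnajc8 and Dnajc4 turned in none of these, although scaling moved them to -0.0316 and 0.39. Hspa4 was at -0.28 with that scaling, and Dnajc28 was at -0.57 with a pseudocount of 0.1 and at -0.67 as a ratio of group means. Precision is limited by 3 tumors per group and by the unknown depth.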
